A study of Mus musculus with 6 samples.

Results

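The neutrophil granule and surface genes described here are 10 transcripts, S100a8, S100a9, Ltf, Lcn2, Cd177, Mcemp1, Ngp, Camp, Cxcr2 and Il1b, out of 18193 genes named on the array. They were taken by symbol from the array platform's annotation. Each of the 10 was represented by 1 probe set, so no choice between probe sets was needed. The 10 were chosen by their known place in neutrophils and with their log2 differences between the genotypes already known, so these differences are given as a description and support nothing about the group.

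The RNA came from pancreatic tumour cells of C57BL/6 mice, 11 weeks old. All 6 samples carried engineered tumour alleles, among them p53f/f and ptf1a-Cre as the labels write them, in which Cre recombinase is driven from Ptf1a, a gene of the pancreatic exocrine lineage. In 3 samples Msi1 was wild-type and in 3 it was Msi1 -/-, called Msi1-null below. Musashi 1, the product of Msi1, binds RNA in progenitor cells. Each sample was hybridised to 1 Affymetrix mouse array, and values are deposited probe set intensities on a linear scale. The labels do not say clearly that each array had its own animal, so errors here measure the spread between these samples. The number of arrays limits the precision.

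Neutrophils carry their antimicrobial proteins in granules that are filled in sequence as the cell matures: azurophil granules with myeloperoxidase and serine proteases, then specific granules with lactoferrin, lipocalin 2 and cathelicidins, then gelatinase granules. Their cytosol is rich in S100A8 and S100A9, which pair to form calprotectin, and mature cells use the chemokine receptor CXCR2 to leave the blood for inflamed tissue. Neutrophils are common among the leukocytes of pancreatic tumours. Lactoferrin and lipocalin 2 are also secreted by epithelial cells of glands and mucosa, so Ltf and Lcn2 are set beside epithelial genes below.

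The labelled tumour cells were not free of leukocyte RNA. Epithelial markers were bright in all 6 arrays, with Epcam between 6614 and 8966 and Krt19 between 6174 and 9506. Ptprc, the pan-leukocyte antigen CD45, read between 1406 and 3035, and C1qa, a complement gene of macrophages, between 5010 and 8608. Array background, the level that 95% of 84 probe sets for olfactory, vomeronasal, taste and trace amine receptors stay under, lay between 161.6 and 187.9. Wild-type replicate 3 stood apart in sex-linked transcripts, with Xist at 6226 against 131 to 387 elsewhere and the Y-linked Eif2s3y at 88.2 against 716 to 944. The brightest Msi1 probe set read between 127 and 257 and did not separate the genotypes, so it does not check the labels.

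The probe sets of the 10 genes covered a wide range of intensities, which do not rank transcript amounts between genes. Lcn2, S100a8, S100a9 and Ltf were bright, at the 94.9 percentile of all probe sets by mean or above. Mcemp1 and Il1b were intermediate, at the 81.7 and 80.8 percentiles. Ngp and Cd177 were dimmer, and Camp and Cxcr2 lay at the background, where only 3 and 4 of 6 arrays respectively exceeded it. Between arrays 8 of the 10 varied widely: the highest and lowest array differed by log2 1.15 to 3.20, against a median of 0.30 over 18193 genes, while Camp and Cxcr2 spanned 0.52 and 0.47.

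**Figure D1:**
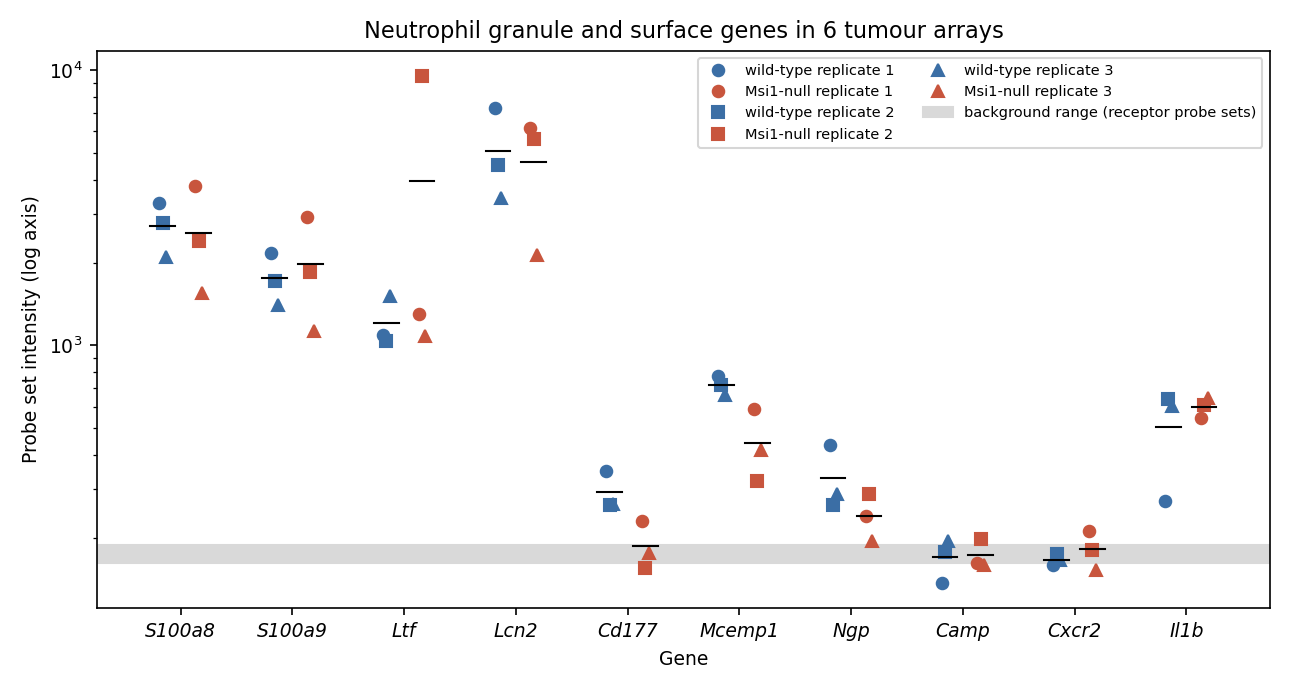
Intensity of each of the 10 genes in every array, on a log axis, with wild-type arrays in blue, Msi1-null arrays in red, marker shape for the replicate number and black bars for group means. The grey band is the range of array background; Camp and Cxcr2 lie in or near it, and Ltf in Msi1-null replicate 2, at 9504, stands far above its other values.

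S100a8 and S100a9 encode the subunits of calprotectin, a calcium-, zinc- and manganese-binding protein of the neutrophil cytosol that acts on the receptors TLR4 and RAGE when released. S100a8 read 3287, 2784 and 2091 in wild-type replicates 1 to 3, and 3777, 2387 and 1546 in Msi1-null replicates 1 to 3. The Msi1-null values enclosed all the wild-type ones, so the groups overlapped fully. S100a9 read 2158, 1710 and 1397 in wild-type and 2925, 1855 and 1125 in Msi1-null arrays. Its order of arrays was almost that of S100a8, with Msi1-null replicate 1 highest and Msi1-null replicate 3 lowest for each gene.

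The log2 difference, Msi1-null minus wild-type, was -0.15 ± 0.32 (SE, n = 3 and 3; 95% interval -0.90 to 0.59) for S100a8 and 0.08 ± 0.33 (SE; -0.70 to 0.86) for S100a9. Within Msi1-null arrays alone S100a8 spanned 2.44-fold and S100a9 2.60-fold, more than any distance between the genotype means. Fewer neutrophils and less of a transcript per neutrophil cannot be told apart in RNA from mixed cells. S100a8 and S100a9 lie side by side on chromosome 3 in the RefSeq annotation, with 0 protein-coding genes between their starts. The S100a8 probe set has the suffix _s_at, which Affymetrix gives to probe sets whose probes can match more than 1 transcript.

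Lcn2, lipocalin 2, binds bacterial siderophores and so withholds iron from microbes. Its probe set read 7251, 4534 and 3440 in wild-type and 6135, 5596 and 2134 in Msi1-null arrays. Replicate 1 was highest and replicate 3 lowest within each genotype, as for S100a8 and S100a9. The log2 difference was -0.21 ± 0.43 (SE; 95% interval -1.22 to 0.80). The pattern of Lcn2 over the 6 arrays was like that of S100a8, with Pearson r = 0.91, Spearman rho = 0.89 and r = 0.82 without the 2 arrays farthest from the S100a8 median. These coefficients describe 6 shared arrays and carry no test.

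The promoters of these 3 genes, whose arrays ran in nearly the same order, are shown for the letters of 3 motifs of granulocyte and inflammatory gene regulation. The motifs searched on both strands were TTGCNNAA of the C/EBP type, GAGGAA of the PU.1 type and the NF-kappaB consensus with 1 free base. Each window runs from 250 bases before to 50 bases after the RefSeq start in GRCm38.p6, is read 5′ to 3′ on the gene's strand, and has motif matches in capitals.
S100a8, chr3:90668821-90669120, plus strand: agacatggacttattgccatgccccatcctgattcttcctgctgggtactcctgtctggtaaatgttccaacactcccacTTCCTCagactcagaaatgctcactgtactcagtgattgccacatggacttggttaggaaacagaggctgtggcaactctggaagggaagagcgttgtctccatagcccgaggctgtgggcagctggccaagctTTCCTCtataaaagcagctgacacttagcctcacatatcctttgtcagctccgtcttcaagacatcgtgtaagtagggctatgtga
S100a9, chr3:90695672-90695971, minus strand: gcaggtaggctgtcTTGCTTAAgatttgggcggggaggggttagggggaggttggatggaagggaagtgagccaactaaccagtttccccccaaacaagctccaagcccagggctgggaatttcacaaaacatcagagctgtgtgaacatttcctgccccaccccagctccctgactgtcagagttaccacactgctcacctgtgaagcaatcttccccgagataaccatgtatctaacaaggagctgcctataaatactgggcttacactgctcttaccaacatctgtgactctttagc
Lcn2, chr2:32387690-32387989, minus strand: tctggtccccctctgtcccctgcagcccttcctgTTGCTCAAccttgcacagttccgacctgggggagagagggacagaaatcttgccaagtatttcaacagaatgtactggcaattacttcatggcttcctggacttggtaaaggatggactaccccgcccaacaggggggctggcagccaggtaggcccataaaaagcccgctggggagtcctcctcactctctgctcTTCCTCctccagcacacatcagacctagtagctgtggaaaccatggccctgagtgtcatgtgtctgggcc
S100a8 holds GAGGAA on the opposite strand from positions -170 and -36, counted from the start, and S100a9 holds TTGCNNAA from -236. Lcn2 holds TTGCNNAA from -216 and GAGGAA on the opposite strand from -20.

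Over the promoters of all 10 genes, TTGCNNAA was found in 4 and GAGGAA in 5. Among 32851 RefSeq promoter windows of the same length the shares were 10.8% and 28.3%. The NF-kappaB pattern was in 0 of the 10 windows and in 0.411% of all windows. A match is a run of letters, not a bound site, and none of these shares was tested.

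Ltf, lactoferrin, is an iron-binding protein of specific granules and of glandular secretions such as milk and tears. It read 1090, 1035 and 1506 in wild-type and 1301, 9504 and 1082 in Msi1-null arrays. Msi1-null replicate 2 stood alone, 2.66 log2 units above the next array, while the other Msi1-null values lay within the wild-type range. Group means were 1210 ± 257 and 3963 ± 4800.4 (SD, n = 3), and the log2 difference was 0.99 ± 0.75 (SE; 95% interval -0.77 to 2.75). Without Msi1-null replicate 2 the log2 difference was -0.01.

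By that distance from the next array, Ltf ranked 2 of 18193 genes in Msi1-null replicate 2, in a list examined after the values were seen. Chil4, a chitinase-like gene, ranked 1, at 1323 against 110 to 153 in the other arrays, and Ang, a secreted ribonuclease, ranked 3, at 1930 against 138 to 325. There were 33 genes more than 1 log2 unit above the next array there. The Ltf promoter is shown because it holds both myeloid motif types in 1 window.
Ltf, chr9:111019042-111019341, plus strand: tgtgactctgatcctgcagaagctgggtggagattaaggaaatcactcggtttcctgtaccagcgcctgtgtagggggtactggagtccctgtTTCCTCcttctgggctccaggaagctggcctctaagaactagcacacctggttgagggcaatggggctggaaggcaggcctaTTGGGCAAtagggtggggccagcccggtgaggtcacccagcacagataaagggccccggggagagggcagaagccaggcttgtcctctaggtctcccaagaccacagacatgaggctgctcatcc
It holds matches on the opposite strand only, of GAGGAA from -157 and of TTGCNNAA from -75.

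Epithelial genes did not follow Ltf as a group. Of the 11 measured epithelial markers, 2 had their highest value in Msi1-null replicate 2: Muc1, a transmembrane mucin, at 6415 against 2212 to 4453 elsewhere, and Elf3, an epithelial transcription factor, at 2589 against 877 to 1816. Another 3, Krt8, Cldn4 and Spint1, had their lowest value there, with the tight junction gene Cldn4 at 1419 against 3730 to 4623. Of 7 measured genes of inflamed secretory epithelium, 4 were highest in that array, of which Saa1 and Duoxa2 lay below background. Pigr, the receptor that carries immunoglobulins across epithelium, read 4965 there and between 938 and 2468 elsewhere, and Nfkbiz, a nuclear NF-kappaB cofactor, 1895 against 843 to 1463. The brightest genes of that list, Saa3 and Wfdc2, were not highest there. Saa3 read 4312 there and was highest in wild-type replicate 1, at 5438. Wfdc2 read 4793 there and was highest in Msi1-null replicate 3, at 7243.

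Many myeloid genes, of neutrophils and of macrophages, were at their lowest in Msi1-null replicate 2. Cd177 and Mcemp1 had their lowest value of the 6 arrays there, as did 5 of 10 further specific and gelatinase granule genes and 7 of 13 other neutrophil genes, while 2 and 3 of these lists were highest there. The same held for 5 of 11 monocyte and macrophage genes, such as C1qa and Mrc1, and 6 of 13 genes of the interleukin 1 pathway. Il1r2 is counted in both the neutrophil and the interleukin 1 list. The lists were chosen with earlier results known, and the share of all genes lowest in that array is not given here. Mmp8, the neutrophil collagenase of specific granules, read 173 there and between 191 and 319 in the other arrays. Pglyrp1, of the same list, went the other way, highest there at 1156 against 470 to 914. Slpi, a protease inhibitor of both neutrophils and mucosal epithelium, was highest there at 4114, against 1349 to 1996. The genes most like Ltf over the 6 arrays, Nell1, Anxa8, Sema3b, Tmem45a2 and Coch, had Pearson r between 0.99 and 1.00, which rests on that 1 array. Nell1, Tmem45a2 and Coch were below background in all arrays, so their likeness cannot be read. Which cells gave the Ltf signal was not tested.

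Lcn2 followed neither Ltf nor the keratins. In Msi1-null replicate 2 Lcn2 was 0.31 log2 units above its mean, where Ltf was 2.50 above. In Msi1-null replicate 3, where Lcn2 was lowest at 2134, the epithelial genes Krt7, Krt8, Krt18, Krt19 and Cdh1 had their highest values, with Krt7 at 10507 against 6464 to 7403. Over the 6 arrays all 11 epithelial markers had negative r with Lcn2, from -0.86 for Krt8 to -0.02 for Elf3. The 6 pan-leukocyte genes did not follow Lcn2 either, with r from -0.40 to 0.38 and a median of -0.01. Negative r with the epithelial markers was not particular to Lcn2. Their median r was -0.36 with Lcn2, -0.50 with S100a8 and -0.57 with S100a9. The genes most like Lcn2 were Kansl1, Swsap1, Smpdl3a, Spertl and Kcnj5, with r from 0.98 to 0.99, and 204 of 18192 genes had r over 0.9. For S100a8 the nearest were Epha8, Manea, Tmem200c, Crybb1 and Psmg4, with r from 0.98 to 0.99. Spertl, Kcnj5, Tmem200c and Crybb1 were below background in all arrays, and their likeness cannot be read.

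**Figure D2:**
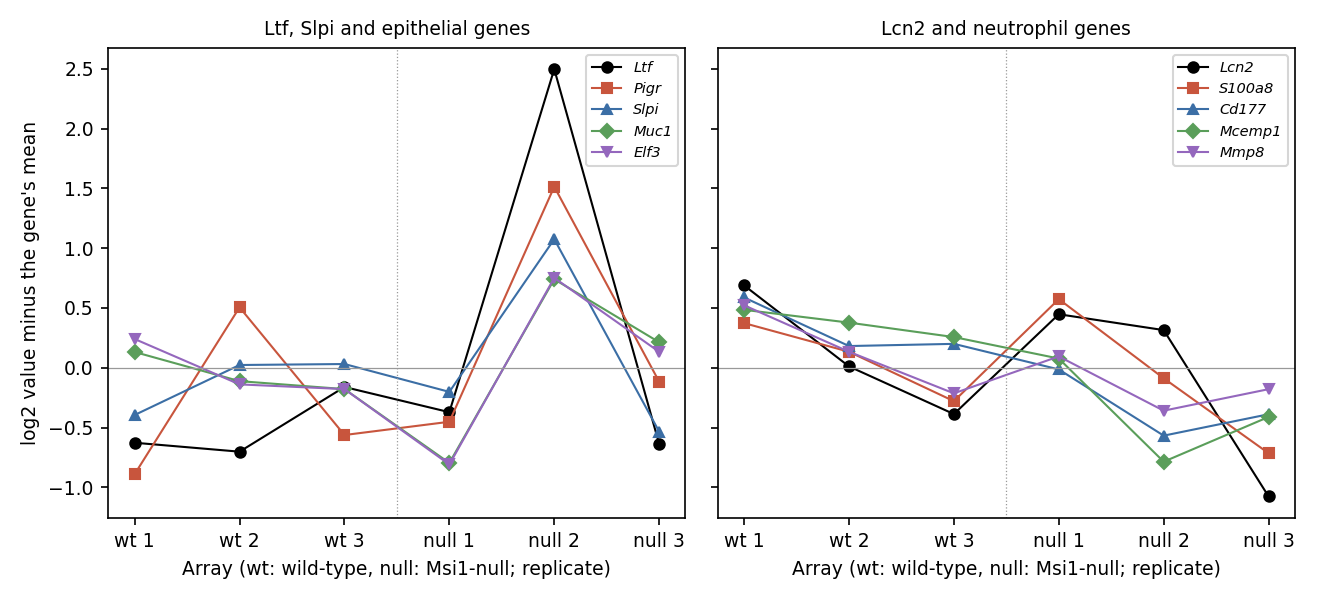
log2 value of each gene minus its mean over the 6 arrays, with wild-type (wt) and Msi1-null (null) replicates along the x axis; lines only join the points of 1 gene. Ltf reaches 2.50 in Msi1-null replicate 2 with Pigr, Slpi, Muc1 and Elf3 above their means, while Cd177 and Mcemp1 are lowest there. The genes beside Ltf and Lcn2 were picked for display after their values were seen, and genes not shown went the other way. In that array the epithelial genes Cldn4 (-1.30), Spint1 (-0.32) and Krt8 (-0.18) were lowest and the granule gene Pglyrp1 (0.77) was highest.

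Cd177 and Mcemp1 encode surface proteins and gave the only values without overlap between the genotypes among the 10. CD177 is a glycosylphosphatidylinositol-anchored protein of neutrophils that in humans presents proteinase 3 on the cell surface and binds PECAM1. Cd177 read 349, 263 and 266 in wild-type and 230, 156 and 177 in Msi1-null arrays. Every Msi1-null value lay below every wild-type value, and Msi1-null replicate 2 lay below its array background of 161.7. Group means were 293 ± 48.6 and 188 ± 37.9 (SD, n = 3), and the log2 difference was -0.65 ± 0.17 (SE; 95% interval -1.04 to -0.26).

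Mcemp1, a transmembrane protein known from mast cells and other myeloid cells, read 777, 721 and 663 in wild-type and 586, 322 and 417 in Msi1-null arrays. Here too the groups did not overlap, and the wild-type values were close together while the Msi1-null values spanned 1.82-fold. The log2 difference was -0.75 ± 0.21 (SE; 95% interval -1.23 to -0.26). Over the 6 arrays Cd177 and Mcemp1 had Pearson r = 0.96, Spearman rho = 0.94 and r = 0.98 without the 2 arrays farthest from the Cd177 median. These coefficients take in the genotype difference that both genes show, so they do not measure likeness apart from it. Within Msi1-null the 2 genes had the same order of arrays. Within wild-type both were highest in replicate 1, but Cd177 was lowest in replicate 2 and Mcemp1 in replicate 3. Leaving out 1 array at a time gave -0.80 to -0.51 for Cd177 and -0.97 to -0.54 for Mcemp1, with -0.71 and -0.80 without wild-type replicate 3, the array with a female pattern of Xist and Eif2s3y.

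Groups without overlap and lower in Msi1-null arrays were found for 2 of the 10 genes, against 3.71% of all 45037 probe sets. Groups without overlap and higher were found for 0 of the 10, against 4.08%, which makes 2 of 10 against 7.79% in either direction. Nothing is read from these shares, because the same contrast was known when the list was made. In the fit across all probe sets, 0 of the 10 had an adjusted p under 0.05 (limma, Benjamini-Hochberg), as had 0.0% of all probe sets. At an unadjusted p under 0.05 there were 2 of the 10, Cd177 and Mcemp1, and 3.01% of all probe sets. Markers of mast cells, eosinophils and basophils, among which Mcemp1 could also be counted, were mostly at background: 2 of 8, Kit and Siglecf, exceeded it in all arrays, and 0 of 8 separated the genotypes.

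The promoters of Cd177 and Mcemp1, whose groups did not overlap, are shown with matches in capitals.
Cd177, chr7:24760262-24760561, minus strand: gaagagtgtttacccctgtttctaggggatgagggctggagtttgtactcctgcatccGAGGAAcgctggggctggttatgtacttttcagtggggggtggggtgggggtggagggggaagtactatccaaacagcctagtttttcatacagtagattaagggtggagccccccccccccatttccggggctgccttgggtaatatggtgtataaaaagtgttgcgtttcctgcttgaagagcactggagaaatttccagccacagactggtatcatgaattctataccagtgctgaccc
Mcemp1, chr8:3665512-3665811, plus strand: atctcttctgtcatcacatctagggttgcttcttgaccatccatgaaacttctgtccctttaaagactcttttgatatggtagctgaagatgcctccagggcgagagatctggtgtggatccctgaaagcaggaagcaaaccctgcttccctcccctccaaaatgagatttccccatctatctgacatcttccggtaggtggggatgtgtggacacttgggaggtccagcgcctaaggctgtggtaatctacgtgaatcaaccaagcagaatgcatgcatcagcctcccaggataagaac
Cd177 holds GAGGAA from -192, and the Mcemp1 window holds none of the 3 letter patterns.

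**Figure D3:**
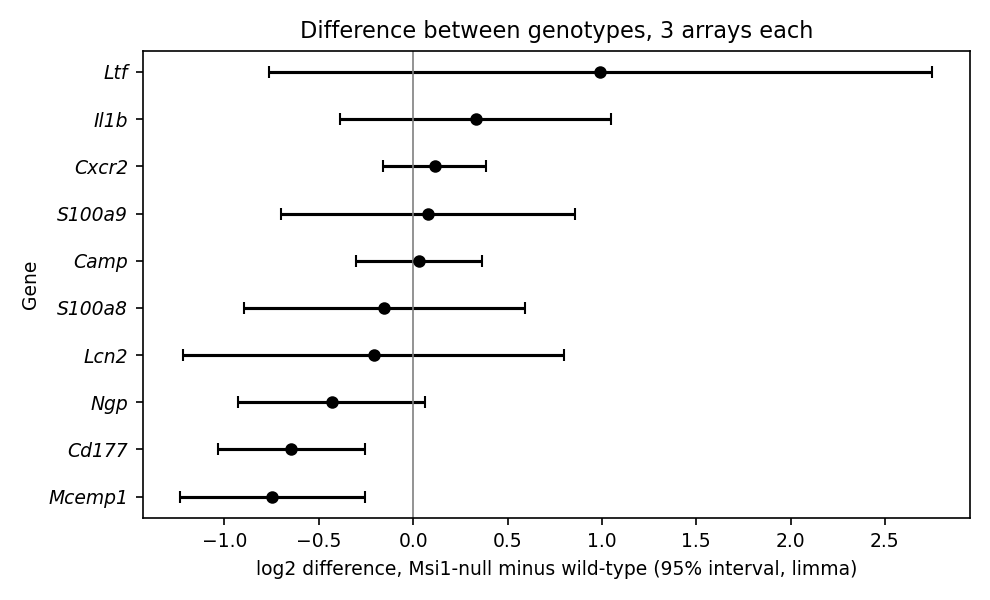
log2 difference, Msi1-null minus wild-type, of each of the 10 genes with its 95% interval from limma, 3 arrays per genotype. The intervals of Mcemp1 (-1.23 to -0.26) and Cd177 (-1.04 to -0.26) lie below 0, and that of Ltf is the widest, from -0.77 to 2.75.

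Ngp and Camp encode granule proteins of the cathelicidin type. Ngp, neutrophilic granule protein, is made by bone marrow neutrophil precursors in mice, and Camp encodes the precursor of the antimicrobial peptide CRAMP. Ngp read 434, 264 and 290 in wild-type and 240, 288 and 196 in Msi1-null arrays. Only wild-type replicate 1 stood above the rest, and the other 5 values overlapped. The log2 difference was -0.43 ± 0.21 (SE; 95% interval -0.93 to 0.06), and it was -0.21 without wild-type replicate 1.

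Camp read 138, 178 and 196 in wild-type and 163, 198 and 159 in Msi1-null arrays. These values are at background, and their log2 difference was 0.03 ± 0.14 (SE; 95% interval -0.30 to 0.37). Camp, Ngp and Ltf all lie on chromosome 9, with 8 protein-coding genes between Camp and Ngp and 20 between Ngp and Ltf. Ltf and Ngp diverged by up to 3.71 log2 units between arrays, and Ngp was highest in wild-type replicate 1, where Camp was lowest. Ltf and Camp were each highest in Msi1-null replicate 2 and next in wild-type replicate 3 (r = 0.61, rho = 0.60), but the pattern of Camp, at background, cannot be read.

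Cxcr2, the receptor for the neutrophil chemokines, read 159, 175 and 167 in wild-type and 213, 181 and 153 in Msi1-null arrays. The highest and the lowest value were both Msi1-null, at a level close to background, with a log2 difference of 0.11 ± 0.12 (SE; 95% interval -0.16 to 0.39). Of 8 genes for its ligands and for neutrophil growth factors, 4 lay above background in all arrays. Cxcl5 read 527, 936 and 953 in wild-type and 1455, 1207 and 946 in Msi1-null arrays, differing by 0.61 ± 0.26 on the log2 scale (SE), with overlap at 1 Msi1-null value. Cxcl1 read 346, 474 and 999 in wild-type and 382, 349 and 637 in Msi1-null arrays (-0.31 ± 0.40, SE). Of the 8, 0 passed the test, 4 had higher and 4 lower means, and 0 separated the genotypes.

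Il1b encodes interleukin 1 beta, a cytokine of neutrophils, monocytes and macrophages with a precursor that caspase 1 cleaves. It read 273, 640 and 604 in wild-type and 543, 606 and 642 in Msi1-null arrays. Wild-type replicate 1 was low and the other 5 arrays lay between 543 and 642. The log2 difference of 0.33 ± 0.31 (SE; 95% interval -0.39 to 1.05) rested on that array and was -0.06 without it. In the same array 4 of 6 pan-leukocyte genes and 5 of 11 monocyte and macrophage genes had their lowest value, Ptprc at 1406 against 2321 to 3035. The share of all genes lowest in that array is not given here. The part of leukocyte content in the Il1b value was not tested.

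Among 13 further genes of the interleukin 1 pathway, 0 passed the test, 6 had higher and 7 lower means. Il1rn, the receptor antagonist, was the only one whose groups did not overlap, at 481, 980 and 828 in wild-type and 1510, 1010 and 1135 in Msi1-null arrays. Its log2 difference was 0.72 ± 0.28 (SE). Over all probe sets, 7.79% were without overlap in either direction. Casp1 and Nlrp3, of the inflammasome, differed by 0.04 ± 0.13 and -0.10 ± 0.11 (SE).

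**Figure D4:**
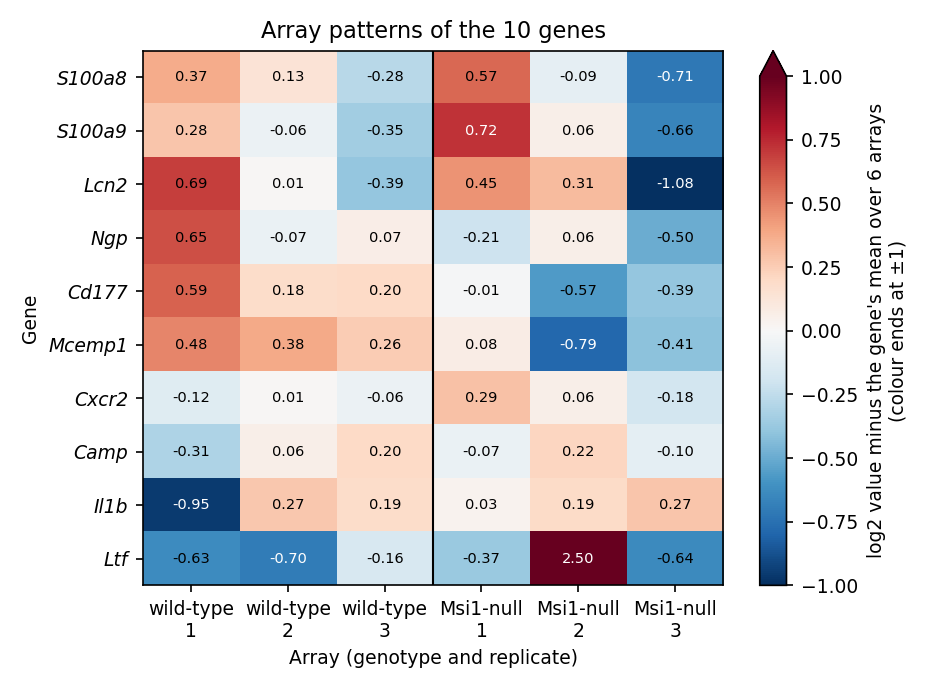
Each gene's log2 value in an array minus its mean over the 6 arrays, with wild-type arrays left and Msi1-null arrays right of the black line and the colour scale ending at ±1. S100a8, S100a9 and Lcn2 share high values in replicate 1 and low values in replicate 3 of each genotype, Cd177 and Mcemp1 are lowest in Msi1-null replicate 2, and Il1b is lowest in wild-type replicate 1 (-0.95).

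As a group the 10 genes did not run together. In wild-type replicate 1, 4 genes, Lcn2, Cd177, Mcemp1 and Ngp, had their highest value and 2, Camp and Il1b, their lowest. In Msi1-null replicate 3, 5 had their lowest value. Means were lower in Msi1-null arrays for 5 of 10 genes and higher for 5, against 48.6% and 51.4% of all probe sets. The median log2 difference was -0.06, against 0.00 over all probe sets, and single arrays moved it: it was -0.35 without Msi1-null replicate 1 and 0.20 without Msi1-null replicate 3.

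Other neutrophil genes were read from lists chosen with results of these arrays known. Azurophil granule genes gave 0 of 4 past the test, with Mpo and Ctsg, myeloperoxidase and cathepsin G, below background in all arrays. Prtn3, proteinase 3, read 458, 373 and 544 in wild-type and 421, 313 and 382 in Msi1-null arrays, and Elane, neutrophil elastase, lay between 188 and 226. Specific and gelatinase granule genes also gave 0 of 10 past the test, with 4 higher and 6 lower means and a median log2 difference of -0.07.

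In the specific and gelatinase list 1 gene stood out, Chil3, a chitinase-like protein of neutrophil precursors and of alternatively activated macrophages. It read 16140, 6717 and 3977 in wild-type and 458, 701 and 2008 in Msi1-null arrays, without overlap and differing by -3.13 ± 0.64 (SE). Chil3 was the lowest difference of all 45037 probe sets. Its order of arrays within Msi1-null was the reverse of that of S100a8, with replicate 3 highest and replicate 1 lowest, while within wild-type the 2 genes had the same order. The acinar genes measured beside it were also lower in Msi1-null replicates 1 and 2: Cela3b read 5198, 9446 and 6507 in wild-type and 749, 1528 and 4515 in Msi1-null arrays. The part of acinar tissue in the Chil3 difference was not tested.

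Of the other 13 neutrophil genes measured, 0 passed the test, 7 had higher and 6 lower means, and the median log2 difference was 0.03. Groups did not overlap for 3 of them, against 7.79% of all probe sets in either direction. Wfdc21, a secreted whey acidic protein family member, was lower, at 1037, 666 and 695 in wild-type and 375, 320 and 443 in Msi1-null arrays (-1.06 ± 0.20, SE). Csf3r, the receptor for granulocyte colony-stimulating factor, was higher, at 349, 456 and 387 in wild-type against 825, 496 and 460 in Msi1-null arrays (0.54 ± 0.23, SE). Padi4, the enzyme that citrullinates histones in neutrophil extracellular traps, lay near background, at 135, 167 and 154 in wild-type against 184, 193 and 187 in Msi1-null arrays (0.31 ± 0.08, SE). These pointed in opposite directions, and with 7 higher and 6 lower means the list had no common direction. At an unadjusted p under 0.05 there were 5 of the 13 (limma), against 3.01% of all probe sets. Besides the 3 above they were Trem1 and Stfa2l1, both lower but with overlap (-0.53 ± 0.18 and -0.42 ± 0.14, SE). Stfa2l1 exceeded background in only 1 Msi1-null array.

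Receptors for the products of the 10 genes gave 0 of 6 past the test. Tlr4 read 567, 455 and 452 in wild-type and 446, 308 and 372 in Msi1-null arrays, and Ager, which encodes RAGE, 244, 195 and 180 against 162, 176 and 162, each without overlap (-0.40 ± 0.16 and -0.30 ± 0.12, SE). Ager exceeded array background in only 1 Msi1-null array, so its lower values lie at background. Pecam1, the endothelial partner of CD177, differed by 0.27 ± 0.11 (SE), also without overlap. Of the 6, 2 were lower and 1 higher without overlap, against 3.71% and 4.08% of all probe sets.

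Levels of other cell types were set beside these values. Acinar genes, the digestive enzymes of the exocrine pancreas, had lower means in Msi1-null arrays for 6 of 6, with a median log2 difference of -1.59. Against 0.0% and 3.01% of all probe sets, 0 of 6 had an adjusted p under 0.05 and 6 of 6 an unadjusted one (limma). Their mean score was -1.66, -1.09 and 0.43 in Msi1-null replicates 1 to 3 and between 0.54 and 1.21 in wild-type arrays, while Cd177 and Mcemp1 were lowest in Msi1-null replicate 2. Pan-leukocyte genes had higher means in Msi1-null arrays for 5 of 6, with a median log2 difference of 0.18, and their mean score was highest in Msi1-null replicate 1 (0.39) and lowest in wild-type replicate 1 (-0.42). Monocyte and macrophage genes had higher means for 9 of 11, with a median of 0.10. Epithelial markers had lower means for 7 of 11, with a median of -0.02. Erythroid and platelet genes, signs of blood in the sample, had 0 of 3 and 0 of 3 without overlap; Alas2, the erythroid heme synthesis enzyme, was highest in wild-type replicate 3, at 687 against 153 to 307. The part of these cell types in the differences of Cd177 and Mcemp1 was not tested.

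**Figure D5:**
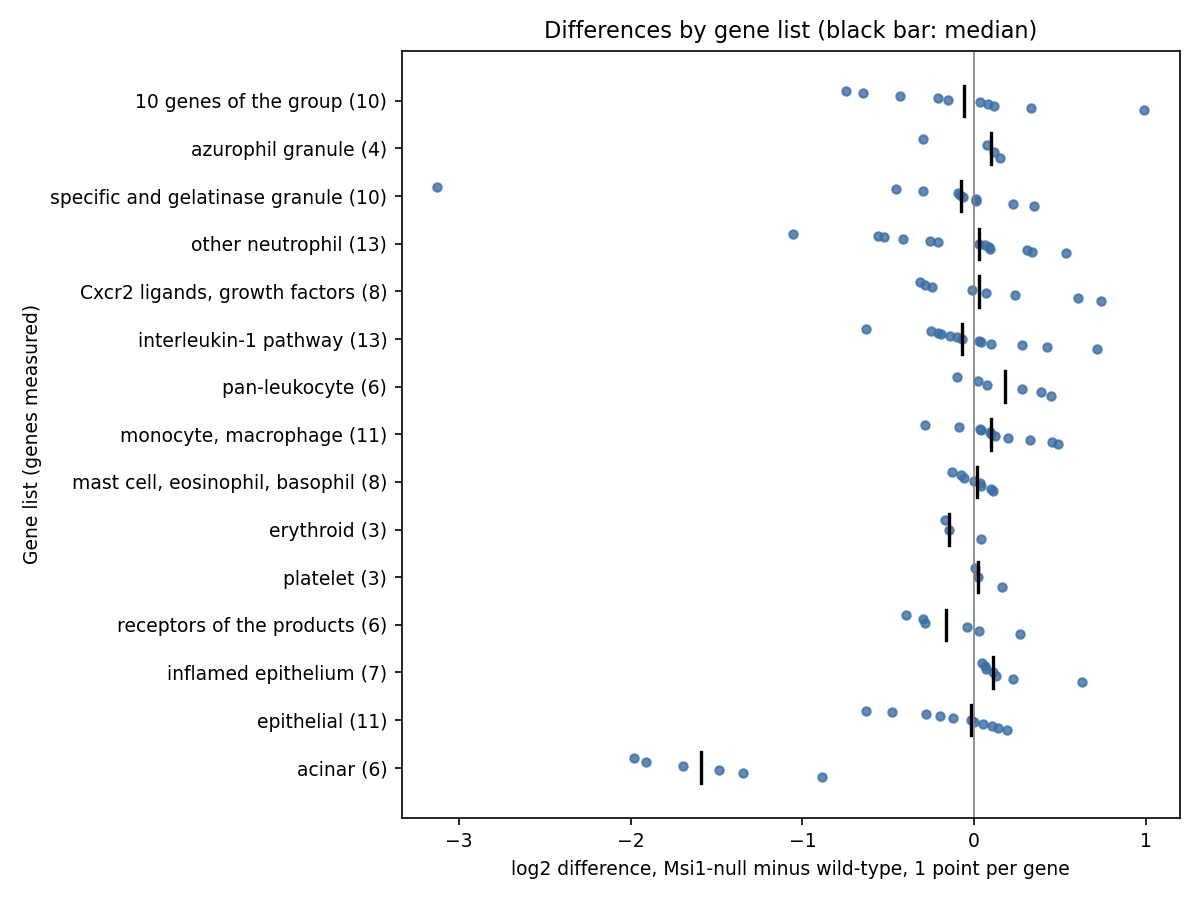
log2 difference, Msi1-null minus wild-type, of every measured gene in each list, 1 point per gene at its brightest probe set, with black bars for the list medians. The acinar median lies at -1.59 and all other medians between -0.17 and 0.18, and single genes reach further, Chil3 to -3.13 and Ltf to 0.99.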

How the data were processed

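Total RNA (6 ug per sample) from 6 mouse samples was labelled with biotin for Affymetrix arrays, per the labels' protocols. The authors deposited 1 table of probe set intensity values, made with GCRMA per the submitters' processing notes, with no version or settings given. GCRMA corrects background by probe sequence and normalizes quantiles, which can compress differences of dim probe sets. The intensities were found to be linear, and whether they were rescaled later is not known here.

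Groups came from the labels. Of 45101 probe sets, 64 controls were left out and 45037 tested. The platform annotation gave 34945 of them 1 symbol, 932 several and 9160 none; symbols were updated through Entrez identifiers and RefSeq GRCm38.p6. Each gene was read at its probe set of highest mean. The scale was log2(intensity + 1), on which a difference of a dim gene is understated. limma 3.58.1 in R 4.3.3 (eBayes with trend) fitted genotype on all arrays, with Benjamini-Hochberg adjustment at 0.05, and was tested on simulated data. SE and intervals are limma's moderated ones.

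Members, lists and the rule for named genes were chosen with earlier results of these data known. The rule names all 10 members, up to 3 non-overlapping genes of each other list or else its 2 brightest, and 5 genes most like Lcn2, Ltf and S100a8. Of the genes it names, Laptm5, Cd53, C1qb, Slc4a1, Pf4 and Itga2b are not described here. Genes given beside the rule's, such as Pigr, Nfkbiz, Ptprc, Mrc1 and Mmp8, were chosen after their values were seen. List genes with no probe set of their own, such as Ly6g, were not analysed here. Promoter sequences are RefSeq's, matched for 10 of 10 genes.

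Alternatives changed the filter, the pseudocount, the prior variance, the normalization, array weights, the replicate block, the averaging of probe sets and the arrays used.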

Additional observations from a re-analysis of the deposited data

How the results depend on the processing

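Of the 10 genes, Cd177, Mcemp1 and Ngp had lower means in Msi1-null arrays under every alternative run that kept them, and no gene passed an adjusted p of 0.05 under any. Leaving out 1 array at a time gave log2 differences from -0.48 to 0.17 for S100a8, -0.26 to 0.43 for S100a9, -0.0078 to 1.56 for Ltf, -0.48 to 0.28 for Lcn2, -0.11 to 0.14 for Camp, -0.0045 to 0.23 for Cxcr2 and -0.062 to 0.55 for Il1b, so the sign of each of these 7 turned; the cause was not tested. With array weights S100a9 was -0.090, Camp -0.036, S100a8 -0.32, Il1b 0.16 and Cxcr2 0.006, with 7 lower means and a median of -0.20. Leaving out arrays gave 3 to 7 genes with lower means, a median log2 difference from -0.35 to 0.20, 2 to 3 genes without overlap, and 0 to 1 probe sets past the threshold. That 1 was Ighm, an immunoglobulin gene, at 1.89 without Msi1-null replicate 1. With probe sets of mean log2 at least 8 only, Cd177, Camp and Cxcr2 were left out and 1 gene was without overlap. Averaging probe sets could not move the 10 genes, each with 1 probe set. The replicate block changed no adjusted call, but SEs fell, from 0.17 to 0.07 for Cd177 and from 0.32 to 0.14 for S100a8. With it 2120 probe sets had an unadjusted p under 0.05, against 1355 in the main fit (limma). The labels state no pairing of arrays. Same-numbered arrays had correlations of deviations of 0.17, -0.09 and 0.28, and differently numbered ones from -0.26 to 0.06. Whether the replicate number links arrays was not tested.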
